A study of Mus musculus with 27 samples.

Results

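A set of 8 genes of the primitive streak and the organizer were followed across mouse pluripotent states: the T-box factors T (Brachyury), Eomes and Tbx6, the homeobox factors Mixl1, Evx1, Gsc and Lhx1, and the bHLH factor Mesp1. They were taken by symbol, and all 8 were among the 23604 genes of the bulk RNA table. The series holds 19 bulk RNA libraries, 182 single cells of 4 fPSC clones, and maps of H3K4me3, H3K27me3 and DNA methylation in fPSCs at P10. Wild-type mESCs (2 libraries) were kept without feeders in N2B27 with PD035901, Chir99021 and LIF. EpiLCs (2 libraries) were 48 h derivatives grown flat in N2B27 with KSR, Activin A and bFgf2, and Epiblastoids (1 library each on days 2, 3 and 4) were mESCs differentiated inside Matrigel in the same factors. EpiSCs (2 libraries) grew on inactivated embryonic fibroblasts with KSR, Activin A, bFGF2 and XAV939. The formative stem cells, fPSCs, were stabilized Epiblastoids passaged in Activin A, bFgf2 and XAV939, an inhibitor of Wnt/β-catenin signalling. They were sampled at P1, at P10, P20 and P30 of the CMT line, at P11 of CMT after freezing, and in the reporter lines 46C (P24), BVSC (P14) and ROSAmTmG (P12). Further fPSCs at P10 had been derived directly from E5.5 and E6.5 epiblasts. Each line and passage is 1 library, so the spread over the 7 long-term fPSC libraries (all but P1) mixes line, passage and deposit.

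At gastrulation, Wnt, Nodal and Bmp signals induce the primitive streak at the posterior side of the epiblast. T and Eomes are switched on in the streak, T being required for posterior mesoderm and Eomes for definitive endoderm and for mesoderm to leave the streak. Mixl1 and Evx1 mark the streak, and Mesp1 and Tbx6 mark nascent mesoderm. Gsc and Lhx1 belong to the anterior streak and the organizer, with Lhx1 and Eomes also active in endoderm.

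FPKM values are fragment counts scaled to transcript length and to the size of the library, and the read depth behind them is not known. Between 10034 and 10933 genes reached 1 FPKM in a library. The labelled cell states showed in their markers: all 4 naive genes listed (Zfp42, Klf4, Esrrb and Tfcp2l1) were lower in fPSCs than in mESCs, and the 4 formative genes (Fgf5, Otx2, Pou3f1 and Dnmt3b) were higher. The 9 fibroblast markers summed to 638 to 752 FPKM in EpiSCs and to 2.82 to 8.82 FPKM in the long-term fPSCs, and feeder RNA in the EpiSC libraries was not tested as a part of any EpiSC value given here. In bulk RNA, fewer expressing cells and less RNA per cell cannot be told apart.

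T was high in EpiSCs and in long-term fPSCs and low in the other replicated states. It measured 1.31 and 1.10 FPKM in mESCs, 0.168 and 0.256 FPKM in EpiLCs, and 30.1 and 42.5 FPKM in EpiSCs. The 7 long-term fPSC libraries ran from 5.37 FPKM in ROSAmTmG, with a median of 19.1 FPKM, to 30.3 FPKM in 46C. The fPSC range lay above mESCs and EpiLCs and met the lower EpiSC library. On the log2(FPKM + 1) scale, T was higher in fPSCs than in mESCs by 3.01 (95% interval 2.07 to 3.94, adjusted p = 8.95e-05) and than in EpiLCs by 3.87 (adjusted p = 3.85e-05). Against EpiSCs the difference of −1.06 (95% interval −1.99 to −0.13, adjusted p = 0.0706) did not pass the threshold, an adjusted p under 0.05 with a change of at least 1.5-fold.

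Eomes separated fPSCs from all 3 reference states, EpiSCs included. Its level was 4.30 and 1.84 FPKM in mESCs, 1.80 and 2.09 FPKM in EpiLCs, and 3.802 and 5.373 FPKM in EpiSCs. Long-term fPSCs ranged from 19.3 FPKM in ROSAmTmG through a median of 29.6 FPKM to 48.4 FPKM in 46C. No fPSC library overlapped any library of the 3 other states. The log2 difference was 2.97 against mESCs (SE 0.31, adjusted p = 5.24e-06), 3.37 against EpiLCs (adjusted p = 6.72e-06) and 2.46 against EpiSCs (adjusted p = 5.08e-05). T and Eomes thus ranked the states differently: mean T in EpiSCs was 36.3 ± 8.78 FPKM (SD, n = 2) beside 18.3 ± 7.58 FPKM (SD, n = 7) in fPSCs, and mean Eomes was 4.59 ± 1.111 FPKM beside 30.6 ± 9.58 FPKM.

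**Figure D1:**
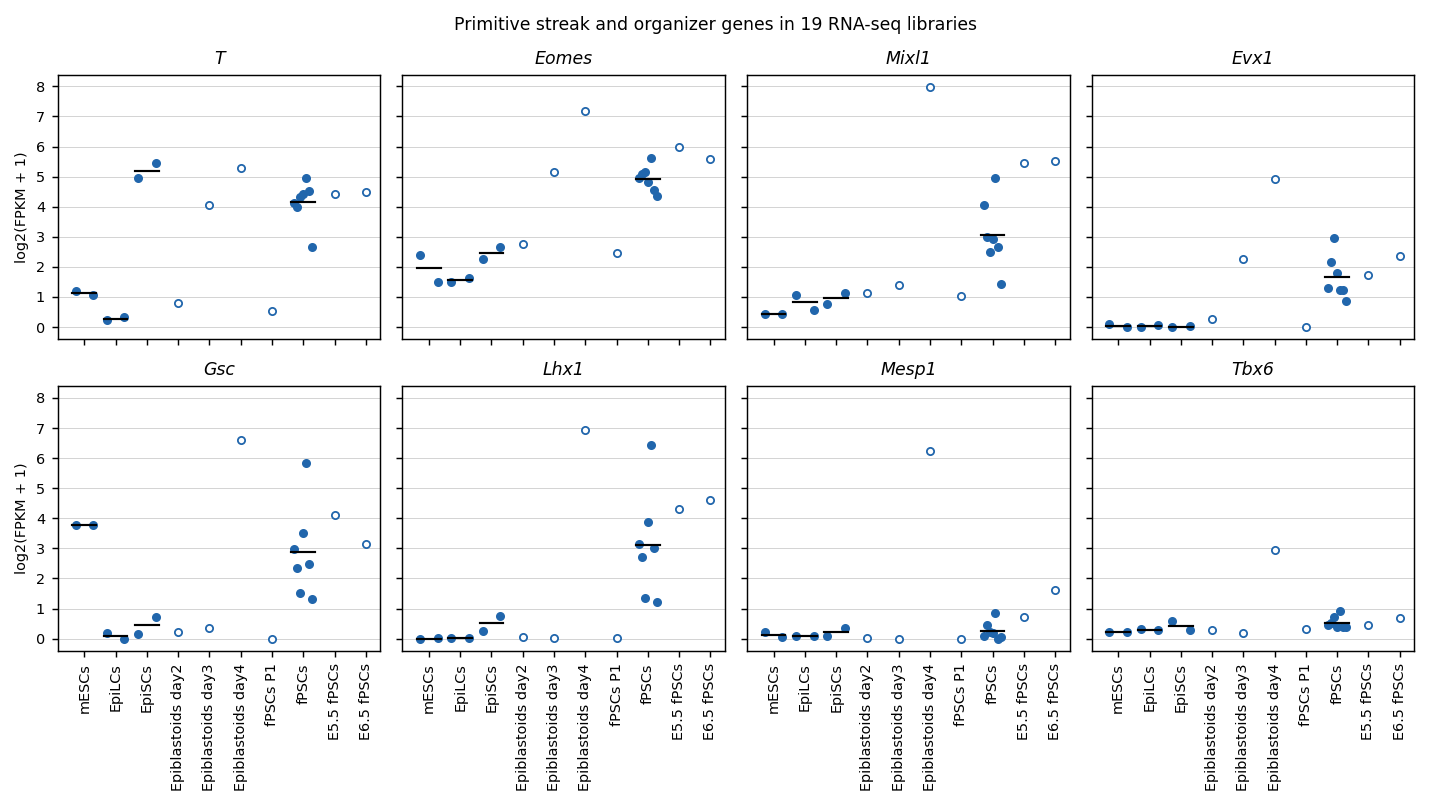
Level of each gene as log2(FPKM + 1) in the 19 libraries, by group. Filled points are libraries of groups with replicates, bars are their means on this scale, and open points are groups of 1 library. Epiblastoids at day 4 stand highest for every gene except T, where an EpiSC library at 42.5 FPKM is above them.

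Mixl1, a paired-type homeobox gene of the streak, was near 1 FPKM or below in the replicated states other than fPSCs. It measured 0.350 and 0.345 FPKM in mESCs, 1.108 and 0.480 FPKM in EpiLCs, and 0.712 and 1.19 FPKM in EpiSCs. In long-term fPSCs the lowest library was ROSAmTmG at 1.71 FPKM, the median 6.63 FPKM and the highest 46C at 29.95 FPKM. Even the lowest fPSC library was above all 6 others, while the fPSC libraries differed among themselves more than they did for T or Eomes. The log2 difference was 2.64 against mESCs (adjusted p = 0.00522), 2.25 against EpiLCs (adjusted p = 0.0335) and 2.12 against EpiSCs (adjusted p = 0.0235). Without either EpiLC library or either EpiSC library, the difference of Mixl1 from that group no longer passed (2.51 and 2.00 against EpiLCs, 1.94 and 2.30 against EpiSCs).

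Evx1, an even-skipped homeobox gene of the posterior streak, was at most 0.0728 FPKM in any mESC, EpiLC or EpiSC library. In long-term fPSCs it ran from 0.839 FPKM in ROSAmTmG through a median of 1.44 FPKM to 6.72 FPKM at P30. Its highest fPSC library was thus not the 46C library, which held 1.34 FPKM. Evx1 entered the test only through fPSC libraries at 1 FPKM or more, so a difference was implied and its calls are given as a description. The log2 differences were 1.60 against mESCs, 1.62 against EpiLCs and 1.63 against EpiSCs, and all passed the threshold. It no longer passed without mESC replicate 2 (1.55), without either EpiLC library (1.60 and 1.65) or without either EpiSC library (1.62 and 1.65). The antisense RNA Evx1os overlaps Evx1 on the opposite strand and reached 14.1 FPKM in its highest library, Epiblastoids at day 4. Whether the libraries kept strand is not given in the sources used here, so reads of Evx1 and Evx1os cannot be told apart where they overlap.

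Gsc (Goosecoid), the organizer homeobox gene, had an order of its own: it was present in mESCs, nearly absent in EpiLCs and EpiSCs, and present again in fPSCs. The mESC libraries held 12.8 and 12.7 FPKM, the EpiLC libraries 0.143 and 0 FPKM, and the EpiSC libraries 0.119 and 0.643 FPKM. Long-term fPSCs ran from 1.52 FPKM in ROSAmTmG through a median of 4.65 FPKM to 56.5 FPKM in 46C, on both sides of the mESC values. Gsc was lower in EpiLCs than in mESCs, by a log2 difference of −3.69 (95% interval −6.02 to −1.35, adjusted p = 0.0198), and lower in EpiSCs by −3.34 (adjusted p = 0.0213). It was higher in fPSCs than in EpiLCs by 2.77 (adjusted p = 0.0471) and than in EpiSCs by 2.42 (adjusted p = 0.044). The difference of fPSCs from mESCs was −0.92 (95% interval −2.79 to 0.95, adjusted p = 0.417), and −1.42, called lower, without 46C. None of the Gsc calls held without either library of a reference state compared, with adjusted p from 0.0617 to 0.238, and those for fPSCs were also lost without some of the fPSC libraries.

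Lhx1 (Lim1), a LIM homeobox gene of the organizer, shared no such level in mESCs. It was listed at 0 and 0.00613 FPKM in mESCs, at 0.0270 and 0.0269 FPKM in EpiLCs, and at 0.185 and 0.702 FPKM in EpiSCs. Long-term fPSCs spread from 1.32 FPKM in ROSAmTmG through a median of 7.11 FPKM to 86.5 FPKM in 46C. The 46C library held more than the next one, CMT P11 at 13.6 FPKM, by a log2 ratio of 2.58. Lhx1, too, entered the test only through fPSCs, so its calls are a description. It was higher in fPSCs than in mESCs by 3.10 on the log2 scale (95% interval 0.95 to 5.26) and passed the threshold, although without mESC replicate 1 or 2 the change of 3.10 or 3.11 no longer passed. The differences from EpiLCs (3.07) and EpiSCs (2.60) did not pass, while without 46C they were 2.51 and 2.04 and did pass.

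Mesp1 and Tbx6, genes of nascent mesoderm, stayed low in every replicated state. Mesp1 was at most 0.811 FPKM in the 13 libraries of mESCs, EpiLCs, EpiSCs and long-term fPSCs, and Tbx6 at most 0.904 FPKM, both maxima in 46C. They were the only members that did not reach 1 FPKM in at least 2 of these libraries, so 6 of the 8 genes were tested.

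Among those 6, Lhx1 and Evx1 reached 1 FPKM only in fPSCs, so their passing the filter already implied a difference, and the counts that follow are a description. Between EpiLCs and mESCs, 1 member (Gsc, lower) was called, where 29.6% of the 12513 tested genes were called, 12.2% higher and 17.4% lower. Between EpiSCs and mESCs, 2 members were called (T higher, Gsc lower), where 47.8% of tested genes were called, 23.1% higher and 24.7% lower. Long-term fPSCs had 5 members higher than mESCs (T, Eomes, Mixl1, Lhx1 and Evx1), where 17.3% of tested genes were higher and 40.3% called in either direction. They had 5 higher than EpiLCs (T, Eomes, Mixl1, Gsc and Evx1), where 5.66% of tested genes were higher and 13.8% called either way, and 4 higher than EpiSCs (Eomes, Mixl1, Gsc and Evx1), where 13.3% were higher and 32.3% called either way. No tested member was called lower in fPSCs, where 23.0%, 8.15% and 19% of tested genes were lower in the 3 comparisons. The median log2 difference over the 6 tested members was 2.81, 2.92 and 2.27 in these comparisons, beside −0.04, 0.01 and 0.02 over all tested genes. The 3 comparisons share the same fPSC libraries. Without mESC replicate 2 the first count was 3, without either EpiLC library the second was 2 (T and Eomes), and without either EpiSC library the third was 1 (Eomes). Without 46C all 6 tested members were called against EpiSCs, T as lower.

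The controls came from 1 deposit and the fPSC libraries from both, the first made by a total RNA protocol (P10, P20 and P30) and the second with a NEBNext Ultra kit (CMT P11, 46C, BVSC and ROSAmTmG). With fPSCs of the first deposit only, the log2 differences from mESCs were 3.01 for T, 3.10 for Eomes, 2.75 for Mixl1, 2.39 for Lhx1 and 2.09 for Evx1. With the second only, they were 3.01, 2.88, 2.57, 3.63 and 1.23 in the same order, and each passed the threshold in both. Gsc, which did not pass over all 7 fPSC libraries, was lower than in mESCs with the first deposit only (−1.50, adjusted p = 0.00586) and did not pass with the second (−0.49, adjusted p = 0.696). Lhx1 passed against EpiLCs and against EpiSCs within either deposit (2.36 and 3.60, 1.89 and 3.13). Mixl1 against EpiLCs passed with the first deposit (2.36, adjusted p = 0.00228) and not with the second (2.18, adjusted p = 0.0532). T passed as lower than in EpiSCs with the first deposit (−1.06, adjusted p = 0.00244) and not with the second (−1.06, adjusted p = 0.109).

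**Figure D2:**
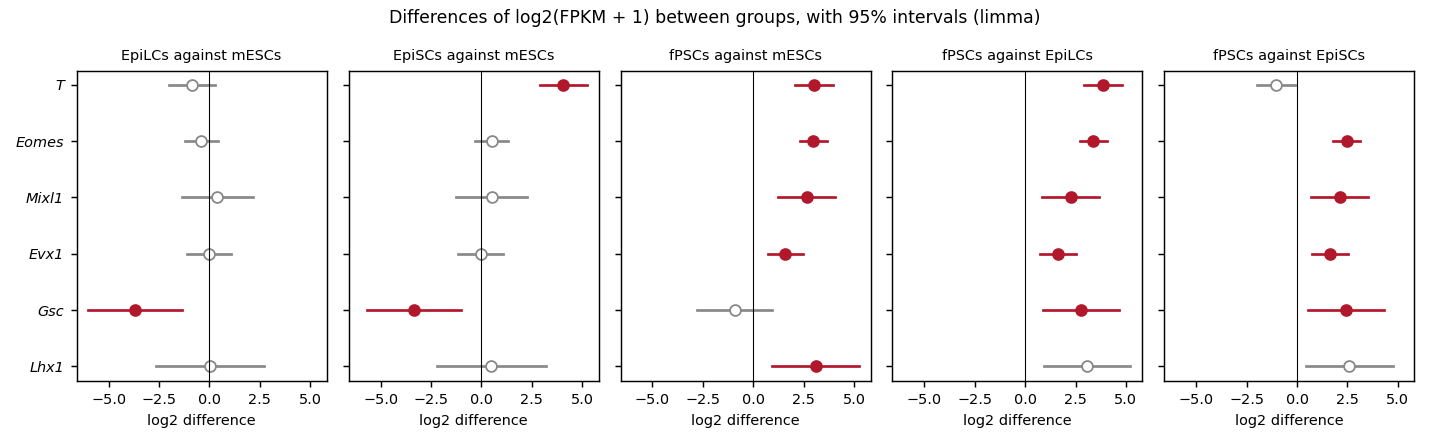
Differences of mean log2(FPKM + 1) between groups for the 6 tested genes, with 95% intervals from limma. Filled red points passed the threshold and open grey points did not. T is called in EpiSCs against mESCs at 4.06 and Eomes only in the fPSC comparisons, at 2.46 to 3.37.

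The 3 days of Epiblastoids gave 1 library each and no test. Between day 2 and day 3, T went from 0.753 to 15.5 FPKM, Eomes from 5.72 to 34.4 FPKM and Evx1 from 0.214 to 3.83 FPKM. These 3 genes exceeded a log2 rise of 1, where 3.11% of genes with 1 FPKM in either library did, and no member was lower by 1, where 2.47% were. Mixl1 (1.19 and 1.65 FPKM), Gsc (0.173 and 0.288 FPKM) and Lhx1 (0.0460 and 0.0143 FPKM) stayed low. On day 3, T, Eomes and Evx1 were thus up without Mixl1 or the organizer pair. On day 4 all 8 genes were higher by more than 1 on the log2 scale, where 7.85% of genes were and 8.22% were lower. Mixl1 reached 254 FPKM, Eomes 145 FPKM, Lhx1 121 FPKM, Gsc 96.1 FPKM, Mesp1 74.7 FPKM, T 37.95 FPKM, Evx1 29.3 FPKM and Tbx6 6.74 FPKM. The sizes of the day 3 to day 4 differences fell into separate ranges: 6.24 to 6.91 on the log2 scale for Lhx1, Mixl1, Gsc and Mesp1, and 1.24 to 2.76 for T, Eomes, Evx1 and Tbx6. Tbx6 went from 0.146 to 6.74 FPKM. With 1 added to each FPKM, a gene ending that low cannot reach the upper range, so its place in the lower one follows from its level. The median over all genes was −0.14, and upper-quartile scaling moved it to −0.00 and the members' range to between 1.38 and 6.99.

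Endoderm genes were high in the same library. The 5 definitive endoderm markers (Sox17, Foxa2, Cxcr4, Gata6 and Trh) summed to 849 FPKM on day 4 and to 72.8 FPKM on day 3, but Trh alone made 457 and 71.4 FPKM of these sums, and it was also at 173 and 111 FPKM in EpiSCs. Sox17 went from 0.145 FPKM on day 3 to 68.7 FPKM on day 4, Foxa2 from 0.558 to 52.8 FPKM and Gata6 from 0.0845 to 38.4 FPKM. The 7 listed visceral endoderm markers summed to 67.9 and 3.92 FPKM, of which Rhox5, also at 247 and 265 FPKM in EpiLCs, made 66.3 and 2.89 FPKM. Afp and Ttr were at 0 on day 4. Which cells of the day 4 library carried the 8 genes was not tested.

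**Figure D3:**
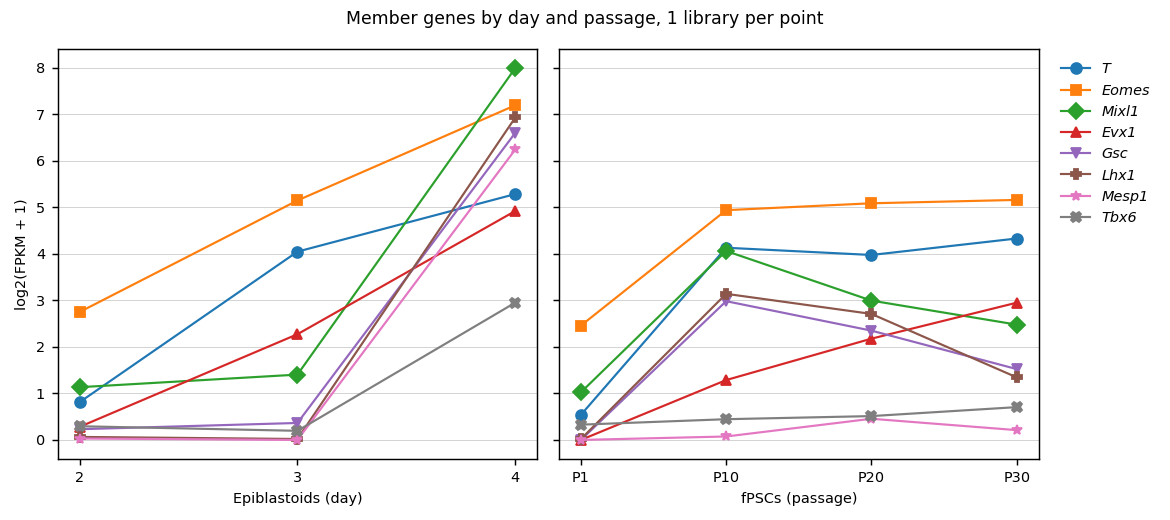
Level of each gene as log2(FPKM + 1) by day of Epiblastoid culture and by passage of CMT fPSCs, with 1 library per point. T and Eomes are up by day 3 and at P10, whereas Lhx1, Gsc and Mesp1 are near 0 on day 3 and high on day 4.

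At P1, fPSCs held few transcripts of these genes: T at 0.452 FPKM, Eomes at 4.49 FPKM, Mixl1 at 1.032 FPKM, Lhx1 at 0.0130 FPKM, and Gsc and Evx1 listed at 0. At P10 of the same line, T was at 16.5 FPKM, Eomes at 29.6 FPKM, Mixl1 at 15.7 FPKM, Lhx1 at 7.81 FPKM, Gsc at 6.90 FPKM and Evx1 at 1.44 FPKM. All 6 were higher by more than 1 on the log2 scale, where 3.81% of genes were and 4.38% were lower, and Mesp1 (0 and 0.0527 FPKM) and Tbx6 (0.255 and 0.362 FPKM) were not. From P10 to P30 the genes parted. T was at 16.5, 14.7 and 19.1 FPKM at P10, P20 and P30, and Eomes at 29.6, 32.9 and 34.7 FPKM. Mixl1 went from 15.7 to 6.97 and 4.57 FPKM, Gsc from 6.90 to 4.09 and 1.87 FPKM, and Lhx1 from 7.81 to 5.53 and 1.54 FPKM. Evx1 went the other way, from 1.44 to 3.52 and 6.72 FPKM. The P10 to P30 log2 ratios of −1.58 for Mixl1, −1.46 for Gsc and −1.80 for Lhx1 lay past −1, where 1.6% of genes did, and that of 1.66 for Evx1 past 1, where 0.719% of genes did. Each passage is 1 library, so no replicate stands behind these ratios.

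Foxa2, a transcription factor of node and endoderm, was at 44.3 FPKM at P10 and 5.24 FPKM at P30. Of the 9 node and endoderm genes listed, 6 were lower at P30 by more than 1 on the log2 scale, where 1.6% of genes were, and none was higher, where 0.719% were.

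The 46C library stood apart among the 7 for the organizer genes. Against CMT P11 of the same deposit, Lhx1, Gsc and Mixl1 were higher by 2.58, 2.32 and 2.02 on the log2 scale, where 3.09% of genes were higher by at least 1 and 0.975% lower. Eomes (0.81), T (0.55) and Evx1 (−0.57) differed by less than 1. The definitive endoderm markers summed to 934 FPKM in 46C, the highest among long-term fPSCs, whose lowest library held 9.66 FPKM, and Trh made 751 FPKM of the sum in 46C. Sox17 was at 50.6 FPKM in 46C and 13.1 FPKM in CMT P11, and Foxa2 at 81.9 and 31.9 FPKM. Of the visceral endoderm markers, Apoa1 was at 16.9 FPKM in 46C and Afp at 0. Line, passage and a share of endoderm cells cannot be told apart for this library. Without it, the fPSC mean fell from 17.6 ± 30.7 to 6.15 ± 4.57 FPKM (SD, n = 6) for Lhx1 and from 12.3 ± 19.7 to 4.92 ± 3.36 FPKM for Gsc, while T (16.3 ± 5.96 FPKM) and Eomes (27.7 ± 6.01 FPKM) moved little.

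ROSAmTmG fPSCs were the opposite end. They had the lowest T, Eomes, Mixl1, Gsc, Lhx1 and Evx1 of the 7 libraries, and the 8 genes summed to 30.4 FPKM there beside 255 FPKM in 46C.

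fPSCs derived from epiblasts held more of several members than mESC-derived fPSCs at the same passage, P10. Mixl1 was at 43.1 FPKM in E5.5 fPSCs and 44.5 FPKM in E6.5 fPSCs, against 1.71 to 29.95 FPKM in the 7 mESC-derived libraries. Eomes was at 62.4 FPKM in E5.5 fPSCs, above all 7, and at 47.0 FPKM in E6.5 fPSCs, just under 46C. Against mESC-derived fPSCs at P10, E5.5 fPSCs had 4 members higher by at least 1 on the log2 scale (Mixl1, Lhx1, Gsc and Eomes), where 2.54% of genes were higher and 2.16% lower, and E6.5 fPSCs had 4 (Mesp1, Lhx1, Mixl1 and Evx1), where 2.63% were higher and 2.75% lower. Lhx1 was at 18.9 and 23.3 FPKM, Gsc at 16.5 and 7.91 FPKM, and T at 20.3 and 21.2 FPKM in E5.5 and E6.5 fPSCs, all within the range of the 7. For Lhx1 and Gsc the top of that range was 46C, and the next library, CMT P11, held 13.6 and 10.5 FPKM. Mesp1 reached 2.04 FPKM in E6.5 fPSCs, its only level over 1 FPKM outside Epiblastoids on day 4. Each is 1 library, with no replicate check.

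Signals and partner genes of the streak were read beside the members. Of all tested genes, 17.3% were higher and 23.0% lower in fPSCs than in mESCs, 5.66% and 8.15% than in EpiLCs, and 13.3% and 19% than in EpiSCs, with medians of −0.04, 0.01 and 0.02. Among the libraries of the fit, Cdx1 reached 1 FPKM only in mESCs and Mesp2 only in EpiLCs. Hand1, Cdx2, Shh and Nog reached it only in EpiSCs, and Sox17 and Gata6 only in fPSCs. Passing the filter already implied the differences of these genes, so the counts and medians that hold them are a description. Of 7 streak signals, 6 were tested, and 3 were higher in fPSCs than in mESCs: Fgf8 (5.95, adjusted p = 1.18e-08) and Wnt3 (4.01, adjusted p = 4.24e-07) led, with Wnt8a, and Tdgf1, the Nodal co-receptor, was lower. Against EpiLCs, 3 of the 6 were higher and none lower, led by Fgf8 (4.63) and Wnt8a (3.24). Against EpiSCs, 4 were higher, led by Fgf8 (1.96) and Wnt3 (1.66), and 1, Bmp4, was lower. The median log2 difference over the tested signals was 1.96, 1.57 and 1.31 in the 3 comparisons.

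Of 10 factors of the streak and nascent mesoderm, 7 were tested, and against mESCs 1 was higher and 2 lower in fPSCs. Sp5, a direct Wnt target, had a log2 difference of −3.33 (adjusted p = 0.000428) and Cdx1 of −3.27 (adjusted p = 1.43e-08), and Sp8 was higher. Against EpiLCs, 1 was higher (Sp8, 1.49) and 1 lower (Mesp2, −1.06). Against EpiSCs, 3 were lower and none higher, led by Hand1 (−5.35) and Snai1 (−2.40). Medians over the tested factors were −0.18, −0.04 and −0.75. The shares called against mESCs were near those of all tested genes. Sp5 was at 28.98 and 46.98 FPKM in mESCs, 0.158 and 0.103 FPKM in EpiLCs, and 0.480 to 12.8 FPKM in long-term fPSCs, below mESCs and above EpiLCs.

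All 9 node and endoderm genes were tested. Against mESCs and against EpiLCs, 3 were higher in fPSCs and none lower: Foxa2 (4.59 and 4.41), Cer1 (4.12 and 4.05) and Chrd. Against EpiSCs, 2 were lower, Shh (−3.71) and Nog (−2.27), and none was higher, a share near that of all tested genes. Medians were 1.46, 1.58 and 1.08. EpiSCs in turn had 1 tested member higher than mESCs and 1 lower, where 23.1% of tested genes were higher and 24.7% lower. Of the node and endoderm genes, 3 were higher (Shh, Foxa2 and Nog) and 0 lower. Of the streak signals, 3 were higher and 2 lower, with Wnt8a at 4.48. Of the streak and nascent mesoderm factors, 4 were higher and 2 lower, with Hand1 at 5.34. Shh, Nog and Hand1 passed the filter only through EpiSCs, so their calls are a description.

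Across the 19 libraries, the genes most like each member were found by Pearson's r of log2(FPKM + 1) among 12682 genes, as a description over libraries that share lines and deposits. Lhx1 was matched by Sox17 (r = 0.986), Cer1 (0.984) and Dapk2 (0.979), and the r values were 0.981, 0.983 and 0.972 without Epiblastoids at day 4. Mixl1 was matched by Lhx1 (0.946), Cfc1 (0.940) and Gata6 (0.938). Gsc was matched by Pga5 (0.941), Hhex (0.903) and Hes1 (0.901). T was matched by Apln (0.936) and Morn4 (0.927), neither of them in the lists above.

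Eomes was matched by Fgf8 (0.922), Wnt5b (0.900) and Mvk (0.892), and Evx1 by its antisense partner Evx1os (0.986), Eomes (0.885) and Mvk (0.843). Mesp1 was matched by Kdr (0.986), Prdm6 (0.977) and Pdgfra (0.973), and Tbx6 by Pdgfra (0.976), Mesp1 (0.967) and Prdm6 (0.952). Without day 4, r was 0.923 for Mesp1 with Prdm6, 0.825 with Kdr and 0.686 with Pdgfra, and for Tbx6 it was 0.743 with Pdgfra, 0.713 with Prdm6 and 0.628 with Mesp1. Outside day 4, Mesp1 exceeded 1 FPKM only in E6.5 fPSCs and Tbx6 in no library, so these values rest on levels near the floor. Among the members themselves, Mixl1 and Lhx1 stayed closest without day 4 (0.931), and Gsc and Evx1 were least alike (0.321).

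In fPSCs at P10, the promoters of the 8 genes fell into separate kinds over wide windows. H3K4me3, the mark of active or poised promoters, and H3K27me3, the mark laid down by Polycomb, were averaged within 5000 bp of the start site and ranked among 22072 protein-coding promoters. Both marks were in the top 10% at T, Eomes, Gsc, Lhx1 and Evx1, which is 5 of 8 members, where 1.54% of all promoters had both. Lhx1 had 6.05 RPKM of H3K4me3 (95% Poisson interval 5.52 to 6.61, from 486 reads) and 4.94 RPKM of H3K27me3 (4.60 to 5.31, 767 reads), percentile 99.7 for each. Gsc had 3.99 and 3.47 RPKM, T 4.00 and 3.06 RPKM, and Evx1 3.46 and 2.24 RPKM. Eomes had the second highest H3K4me3 of the 8 at 4.44 RPKM and, of the 5, the lowest H3K27me3 at 1.63 RPKM (1.43 to 1.84), percentile 91.1. These are intervals of counting error only, from 1 file per mark, and whether the replicates were pooled in it is not given.

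Mixl1, Mesp1 and Tbx6 differed from those 5 in H3K4me3 averaged within 5000 bp. Mixl1 had 0.920 RPKM of H3K4me3 (0.723 to 1.16), percentile 43.9, and 1.71 RPKM of H3K27me3, percentile 91.9. Mesp1 had a like level of H3K4me3, 1.032 RPKM (0.822 to 1.279), and more H3K27me3, 2.391 RPKM (2.15 to 2.65), an interval above that of Mixl1 (1.51 to 1.93). Tbx6 had 1.60 RPKM of H3K4me3 and 0.135 RPKM of H3K27me3 (0.0836 to 0.207, 21 reads), percentile 18.8, the only member without the Polycomb mark above the median of all promoters, 0.379 RPKM. In the P10 RNA library Mixl1 was at 15.7 FPKM, Mesp1 at 0.0527 FPKM and Lhx1, with more of both marks than either, at 7.81 FPKM. For comparison, promoters of genes at 10 FPKM or more had a median of 2.18 RPKM of H3K4me3 and 0.212 RPKM of H3K27me3, and 75.3% of the 292 genes with both marks in the top 10% and a listed FPKM were under 1 FPKM. T, Eomes, Gsc, Lhx1 and Evx1 were all above 1 FPKM.

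The call of both marks rested on the width of the window. Within 2500 bp, T, Eomes, Gsc and Lhx1 kept it, and within 1000 bp no member did (0.19% of all promoters). H3K4me3 within 1000 bp was at percentile 89.9 for Lhx1, 61.5 for Tbx6, 58.7 for Gsc and 54.5 for Mixl1. Tbx6 thus stood above Gsc there, and the split in H3K4me3 held only for wider windows. The marks of these genes were broad: of the 100 bins of 100 bp within 5000 bp, 77 at Lhx1 and 70 at Gsc held at least 2.5 RPKM of H3K27me3, against 32 at Eomes and 0 at Tbx6. At Eomes the H3K27me3 lay before the start, with its highest bin of 6.45 RPKM at −2.3 kb, whereas H3K4me3 had its highest bin of 21.1 RPKM at 1.9 kb inside the gene. Neighbouring starts share these windows: the lincRNA 1500016L03Rik begins 239 bp from Lhx1, Gm10000 begins 1161 bp from Gsc, both on the opposite strand, and 5730457N03Rik, another name of Evx1os, begins 1334 bp from Evx1. Ypel3 (11.4 FPKM at P10) and Gm9967 begin 4528 and 4665 bp from Tbx6. The Tbx6 window held 9.95 RPKM of H3K4me3 in the bins at −4.1 and −4.8 kb.

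DNA methylation averaged within 1000 bp split the genes the same way. Within 1000 bp of the start the mean methylated share was 0.625% at Lhx1, 0.75% at Eomes, 1.63% at T and 2.56% at both Gsc and Evx1, each over 12 to 19 windows of 100 bp. It was 20.5% at Mixl1, 31.5% at Tbx6 and 35.8% at Mesp1. So 5 of the 8 were at 20% or below, where 32.5% of promoters were. Mixl1 lay just above that limit and below it within 500 bp, where 51.6% of promoters were below it. Within 2500 bp T was above the limit, and only Eomes, Gsc, Lhx1 and Evx1 met it, where 3.88% of promoters did. A stretch of windows at 20% or below spanned 6800 bp at Lhx1 (mm9 chr11:84335401-84342200), 6700 bp at Gsc (chr12:105708601-105715300), 3100 bp at T (chr17:8625001-8628100), 2300 bp at Eomes (chr9:118385301-118387600) and 1900 bp at Evx1 (chr6:52262901-52264800). At Mixl1, Tbx6 and Mesp1 it was 1000, 600 and 500 bp long. A stretch ended at any window above 20% or after more than 3 windows without a value, so the lengths depend on this rule. At Eomes it stopped at windows without a value, and those with one from 0.9 to 3.2 kb again read a fraction of at most 0.2. At Evx1 and Tbx6 it stopped upstream at a single window, of 0.3 at −0.6 kb and 0.33 at −0.5 kb, with lower windows beyond. The coverage behind a window is not known, so these shares have no interval.

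The letters of 3 promoters show their CpG content. Each line gives the 250 bases before the annotated start, on the gene's strand in mm9, with every CpG in capitals. Lhx1 (chr11:84338924-84339173, minus strand) is the gene with the strongest marks within 5000 bp. Mixl1 (chr1:182627166-182627415, minus strand) is rich in CpG without strong H3K4me3 within 5000 bp. Mesp1 (chr7:86938675-86938924, minus strand) is poor in CpG.
Lhx1: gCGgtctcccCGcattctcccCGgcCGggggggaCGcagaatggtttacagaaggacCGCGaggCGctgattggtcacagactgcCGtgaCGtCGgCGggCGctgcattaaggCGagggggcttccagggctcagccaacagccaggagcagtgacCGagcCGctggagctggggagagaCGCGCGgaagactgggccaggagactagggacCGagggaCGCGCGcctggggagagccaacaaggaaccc
Mixl1: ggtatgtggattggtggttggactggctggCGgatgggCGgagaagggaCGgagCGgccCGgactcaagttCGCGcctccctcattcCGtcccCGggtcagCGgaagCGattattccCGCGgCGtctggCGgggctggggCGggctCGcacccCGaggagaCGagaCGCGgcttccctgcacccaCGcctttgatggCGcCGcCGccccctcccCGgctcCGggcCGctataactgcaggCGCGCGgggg
Mesp1: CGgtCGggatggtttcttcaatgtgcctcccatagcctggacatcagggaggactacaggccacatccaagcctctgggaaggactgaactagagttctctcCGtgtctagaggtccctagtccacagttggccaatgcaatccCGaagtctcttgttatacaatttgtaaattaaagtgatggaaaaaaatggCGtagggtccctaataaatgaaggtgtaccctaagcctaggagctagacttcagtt
These stretches hold 23, 31 and 5 CpG. Over 300 bases, which add 50 from the start on, Mixl1 held 34 CpG, more than 91% of all promoters and more than Lhx1 at 31. Its methylated share of 20.5% is a mean over a wider window, 1000 bp to each side. Windows from −0.3 to 0.6 kb read a methylated fraction of at most 0.1, and those at −0.8 and 0.8 kb 0.86 and 0.5. T held 17, Gsc 16, Evx1 12, Eomes 9 and Tbx6 7, around a median of 11 over all promoters. Eomes and Tbx6 had like CpG counts and methylated shares of 0.75% and 31.5% within 1000 bp. Yet the Tbx6 windows with a value from −0.4 to 0.1 kb read a fraction of at most 0.05.

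Short motifs of factors acting in the streak were searched on both strands of the same 300 bases. The TCF/LEF motif CTTTGAT, in 3.48% of all promoters, was found at Mixl1 only, with its first base 62 before the start. The FOXH1 motif AATCCAC, in 2.4%, was also found at Mixl1 only, on the other strand from 245 bases before the start. The SMAD motif CAGACA, in 19% of promoters, was found at Evx1, and the T-box site TCACACC, in 3.81%, at no member. No match overlapped another.

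**Figure D4:**
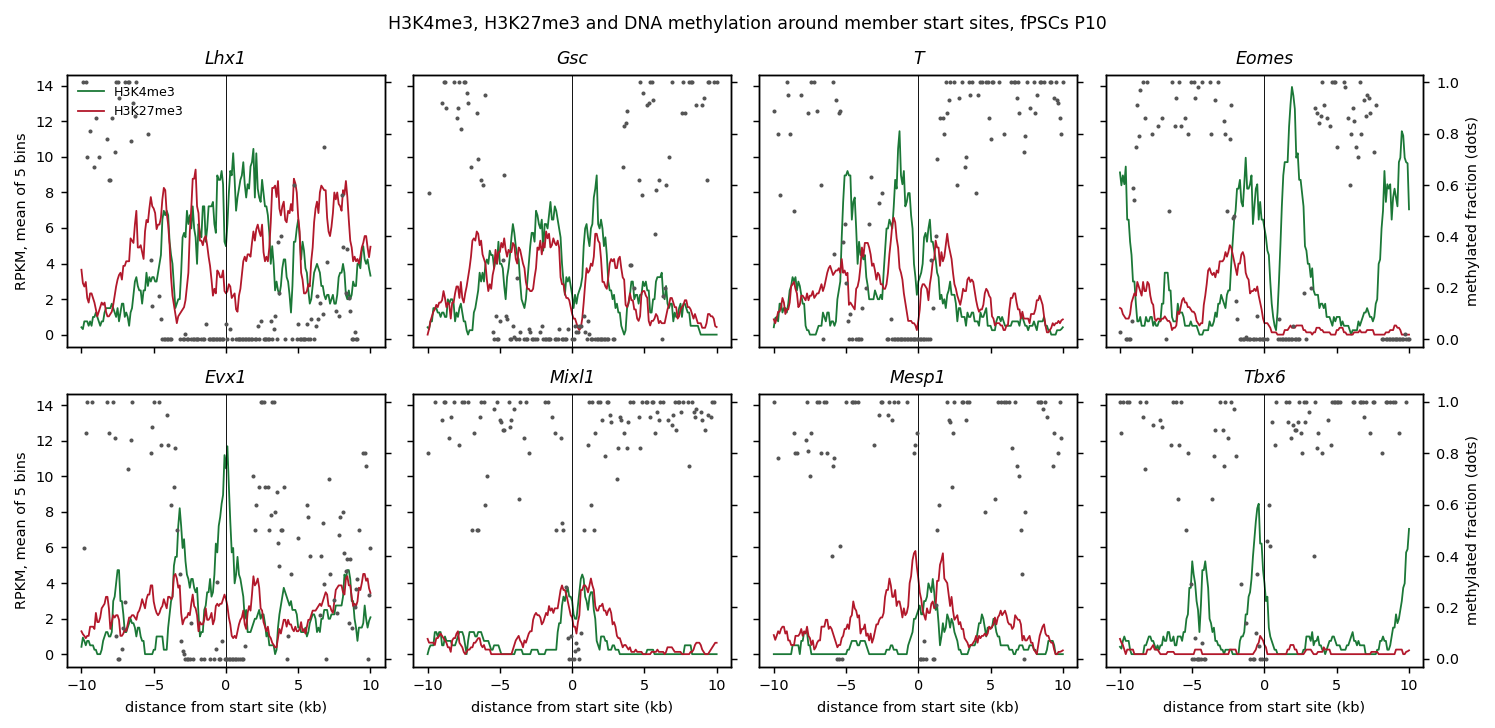
H3K4me3 (green) and H3K27me3 (red) in RPKM, as means of 5 bins of 100 bp, and methylated fraction (grey dots, right axis) within 10 kb of each start site, with transcription to the right. At Lhx1 and Gsc both marks and low methylation span several kb. At Mixl1, Mesp1 and Tbx6 the unbroken low-methylation stretch is at most 1000 bp.

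Single fPSCs at P11 gave counts for 5 of the 8 genes. Of 182 cells of 4 clones, 181 had at least 500 genes, with a median of 23867 counts per cell. The table of clones 1 and 2 lists 4 members (T, Eomes, Mixl1 and Evx1) and that of clones 3 and 4 also Lhx1. Gsc, Mesp1 and Tbx6 are not listed in either, so no share is given for them.

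Eomes was the member seen in most cells. It had a count in 74 of 181 cells, 40.9% (95% interval 33.6 to 48.4%, Clopper-Pearson), and in every clone: 17 of 46, 19 of 45, 17 of 46 and 21 of 44 cells. T had a count in 16 cells (8.84%, 5.14 to 14%), of which 10 were in clone 3 and 2, 1 and 3 in clones 1, 2 and 4. Evx1 had one in 15 cells (8.29%), 7 of them in clone 2, Mixl1 in 7 cells (3.87%, 1.57 to 7.81%) and Lhx1 in 1 cell. Alb, a liver gene that these cells should lack, had a count in 6 cells (3.31%, 1.23 to 7.08%), with 21 of its 30 counts in 1 cell. Of the other 6 genes looked up as background, Myh6 had a count in 2 cells (1.1%, 0.134 to 3.93%), Ins2 in 1 cell, and Gfap, Cd3e, Ptprc and Hbb-b1 were not listed. The shares of Mixl1 and Lhx1 were not separable from this background. The intervals of T and Evx1 (4.71 to 13.3%) lay above that of Myh6 and overlapped that of Alb.

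Detection moved with depth. Cells with Eomes had a median of 50202 counts and cells without it 18368, and cells with T a median of 92786 counts and those without 22719. With each cell thinned to 5000 counts, Eomes had a count in 18.6% of 167 cells, T in 1.8%, Evx1 in 2.4% and Alb in 0.599%, and 14 shallower cells were left out. T was then seen in 2 of 45 cells of clone 3, 1 of 40 of clone 1, and 0 of 41 in each of clones 2 and 4. The higher share of cells with T in clone 3 was thus not separable from depth. Pou5f1, which stood at 462 to 1025 FPKM in the bulk libraries of long-term fPSCs, had a count in only 17 cells (9.39%), so a missing count does not show that a gene was off, and the cause of its low detection was not tested.

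At least 1 member was seen in 87 cells (48.1%), 2 in 18 cells and 3 in 4 cells. Of the 16 cells with T, 9 also had Eomes, of the 15 with Evx1, 11 had Eomes, and of the 7 with Mixl1, 5 had it. These cells were the deeper ones, and the overlap was not tested against depth. Some counts came from very few cells: 1 cell of clone 4 held 217 of the 266 Evx1 counts, and the cell with Lhx1 held 26.

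**Figure D5:**
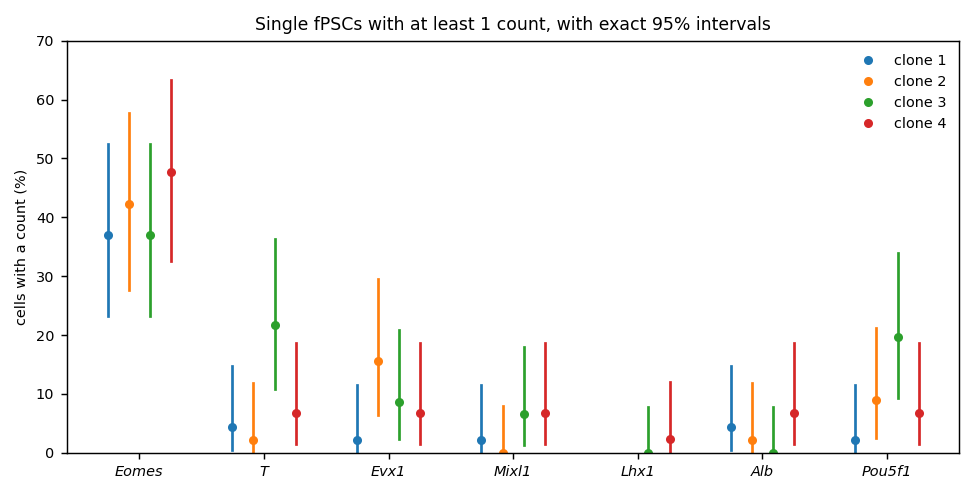
Share of single fPSCs with at least 1 count, by gene and clone, with 95% Clopper-Pearson intervals for counting error. Eomes is seen in 37.0 to 47.7% of cells of a clone, the other listed members, the liver gene Alb and Pou5f1 in at most 21.7%.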

How the data were processed

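Bulk RNA was deposited by the authors as FPKM, made with cutadapt 1.11, TopHat2 2.1.1 and Cufflinks 2.1.1 on mm9. Of 23608 rows, 4 carry a gene name that occurs 2 times and were dropped. Values were analysed as log2(FPKM + 1), which understates changes of low genes. Groups were compared with limma 3.58.1 (R 4.3.3, empirical Bayes with trend) in 1 model holding the libraries of mESCs, EpiLCs, EpiSCs and long-term fPSCs, for genes that reached 1 FPKM in 2 or more of them, with Benjamini-Hochberg adjustment over all tested genes. Nothing in the labels says that libraries of a group came from separate cultures, so p-values measure only the spread between these libraries. The fit was tested on simulated data with known changes.

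The authors deposited ChIP-seq signal, aligned with Bowtie2 2.2.2 to mm9, in RPKM for each 100 bp bin. The values are whole multiples of 1 read, 1.244 RPKM for H3K4me3 and 0.645 RPKM for H3K27me3, so intervals were computed from read counts. Bisulfite data were deposited as the methylated fraction per 100 bp window, without coverage. Starts are the most 5′ start of the gene in the annotation of NCBIM37 (mm9). Single-cell counts were deposited by the authors from Smart-seq2 libraries with barcoded primers that carry random bases, and whether a count is a read or a molecule is not given. Libraries of clones 1 and 3 share 44 cell numbers and those of clones 2 and 4 share 42. Of the columns, 2 have the same name and different values, and both were kept. No doublet caller was run on these hand-picked cells.

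Members and gene lists were chosen with earlier results of these data known. Named beyond the members were the 2 called genes with the largest change per list and the 3 genes most like each member, of which 1 is not reported here. A few further genes (Alb, Pou5f1, endoderm markers) were named after their values were seen. Python 3.11.15, pandas 2.3.3 and scipy 1.17.1 were used.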

Additional observations from a re-analysis of the deposited data

Results flagged for a closer look

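In the 7 long-term fPSC libraries, the 46C P24 library was far above the others for Lhx1 (86.5 FPKM) and for Gsc (56.5 FPKM), with a gap to the next library of 0.856 and 0.837 of the whole range, over the limit of 0.568 for 7 samples. The other 6 members stayed under that limit. Among the 4 single-cell clones, clone 3 was far above the others for Eomes (181 CPM of the summed counts, gap 0.9 of the range, limit 0.829), where 1 cell held 39.2% of that clone's Eomes counts. Clone 4 was far above the others for Evx1 (89.8 CPM, gap 0.879), where 1 cell held 98.6% of the counts. With cells thinned to equal depth as above, Eomes was at 93.3 CPM in clone 3 and 92.7 CPM in clone 4. It was at 45 and 29.3 CPM in clones 1 and 2. Evx1 was then at 4.88 CPM in clone 4 and at 4.44 to 5 CPM in the other clones, from 1 count in each clone. The flags of both clones thus hold for unthinned counts only. Chance flags about 1 in 20 groups where values are normally distributed, and 16 were checked. The gaps were taken on FPKM and CPM, where high values stand further apart than on a log scale. They were not checked on the log2 scale used for the comparisons, so the flags hold for unlogged values only.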

How the results depend on the processing

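The count of members called between EpiLCs and mESCs, 1 as reported, was 2 with a pseudocount of 0.1, 0 without the filter on low values, and 2 with the compared groups alone. Between EpiSCs and mESCs it was 1 without the filter, and for fPSCs against EpiLCs 3 without the filter and 3 with those groups alone, and against EpiSCs 2 without the filter. More genes are tested without the filter, and otherwise the cause was not tested. Leaving out 1 library at a time gave counts of 0 to 0 for EpiLCs against mESCs, 1 to 1 for EpiSCs against mESCs, 3 to 6 for fPSCs against mESCs, 2 to 6 against EpiLCs and 1 to 6 against EpiSCs. A group left with 1 library is then assumed to vary like the others. T and Eomes in fPSCs against mESCs and EpiLCs, and Eomes against EpiSCs, passed under every alternative run. Upper-quartile scaling changed no count of members.

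Differences that changed sign were small and never called: leaving out 1 library moved Eomes in EpiLCs against mESCs between −0.85 and 0.0496, Evx1 between −0.0746 and 0.0267 (0.0028 without EpiLC replicate 1), and Evx1 in EpiSCs against mESCs between −0.0846 and 0.0168. Replicate numbers 1 and 2 are shared by mESCs, EpiLCs and EpiSCs only as numbers: their differences correlated at 0.208, −0.20 and −0.14. With the replicate number as a block, 2 members were called between EpiLCs and mESCs and 2 between EpiSCs and mESCs, and the same libraries without the block gave 2 and 2, an alternative chosen after seeing the data.

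Both promoter marks in the top 10% were met by 0 members within 1000 bp. The count of members seen in at least 10% of single cells, 1 as reported (Eomes), was 1 to 3 when 1 clone was left out (3 without clone 1, 2 without clone 2). Depth is unknown for the FPKM and methylation values, and single-cell detection was limited by depth.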
